A study of Mus musculus with 6 samples.

Results

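The genes described here are 38 type I interferon-stimulated antiviral genes of the mouse, picked by gene name from the 55849 genes of the deposited count and FPKM tables. All 38 names were found. RNA of the descending colon was sequenced in 3 libraries from Muc2-/- mice and 3 libraries from wild-type C57BL/6 mice, all aged 12 weeks and without treatment. Muc2 encodes the gel-forming mucin of colonic mucus, and its loss in mice serves to model chronic colitis. The labels do not describe the mutated allele, the strain of the Muc2-/- mice beyond their genotype, or the number of animals behind each library. Crypts are named in the sample titles and colon tissue in the protocols, so the libraries were read as whole tissue with several cell types. In such tissue a lower level of an RNA can mean fewer cells of a type or less RNA per cell, and these cannot be told apart.

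Type I interferons bind the receptor chains Ifnar1 and Ifnar2, whose kinases Jak1 and Tyk2 pass the signal on to Stat2. Stat2 and Irf9 belong to a complex that binds the interferon-stimulated response element (ISRE) in promoters and raises transcription of antiviral genes. In the gut, epithelial cells also respond to type III interferons, which use Ifnlr1 and Il10rb and the same complex, while interferon gamma acts largely through another sequence, the gamma-activated site (GAS).

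Of the 38 genes, 34 had a positive log2 fold change of Muc2-/- over wild-type, against 49.1% of the 16107 genes tested, and 4 had a negative one (Irf7, Ifit3, Ifit3b and Mx2), against 50.9%. The median was 0.49 over the 38 genes and -0.01 over all tested genes, with a range of -0.71 for Mx2 to 1.86 for Usp18. The transcription factor Irf1, the Isg15 protease Usp18, the nucleic acid sensor Zbp1, Ifit2, Oas2, Oasl1, the tetherin Bst2 and Ifi44 had the smallest p-values, and for each of them every Muc2-/- library lay above every wild-type library. In the quasi-likelihood test of edgeR with adjustment over all tested genes, none of the 38 passed an adjusted p of 0.05 in either direction, where 0.106% of tested genes were called higher and 0.0186% lower. At an unadjusted p under 0.05, 12 genes were higher and 0 lower, against 8.23% and 12.7% of all tested genes. Groups did not overlap, with Muc2-/- higher, for 10 of the 38 genes and for 13.3% of all tested genes, and with Muc2-/- lower for 0 of the 38 and for 15.2% of all. DESeq2, run as an alternative, called 8 of the 38 higher and 0 lower at an adjusted p of 0.05, against 4.09% and 7.41% of the genes it tested. Limma-voom and the limma fits on log2(FPKM + 1) and log2(FPKM + 0.1) called 0 of the 38. They called 0.0683%, 0.292% and 0.0149% of the genes they tested higher, so they called few genes of any kind. Whether a gene was called thus differed between tools, and the sizes below are given with their standard errors (SE).

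**Figure D1:**
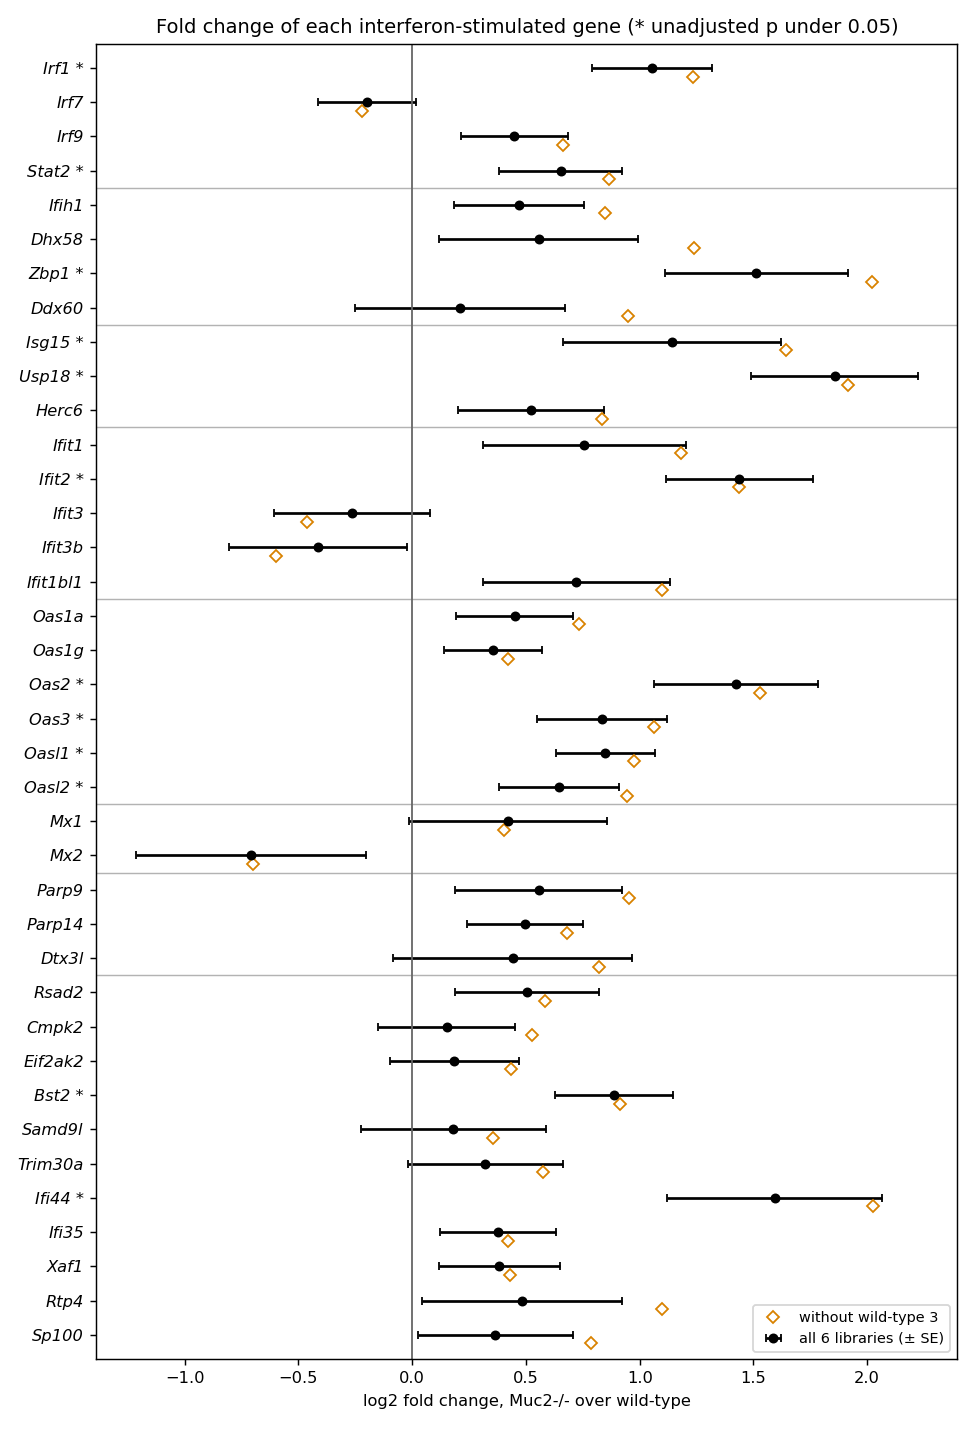
Log2 fold change of Muc2-/- over wild-type for the 38 genes, grouped by role, with filled points at the edgeR estimate, bars of 1 SE, open diamonds for the fit without wild-type 3, and asterisks for an unadjusted p under 0.05. Of the 38 filled points 34 lie right of 0, with Usp18 farthest right at 1.86 and Mx2 farthest left at -0.71.

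Total counts per library lay between 16395432 and 20336459. All 38 genes passed the filter on low counts, and their counts per library ran from 9 to 6900. The mutated gene itself, Muc2, had 755, 1019 and 941 CPM (counts scaled to a common library total) in Muc2-/- 1, 2 and 3, against 2476, 6967 and 2625 CPM in wild-type 1, 2 and 3, so Muc2 RNA was lower in each Muc2-/- library but present. Libraries of a group differed among themselves far beyond counting error. Markers of smooth muscle, the tissue of the gut wall, summed to 2925 to 5664 CPM in Muc2-/- libraries and to 6948 to 24575 CPM in wild-type libraries.

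The promoter sequences show how far these genes share the element that the interferon complex binds. RefSeq promoters on GRCm38.p6, from 250 bases before to 50 after the start, were matched for 29 of the 38 genes, some with more than 1 promoter, 35 in all. The ISRE core was searched as GAAANNGAAA or its reverse TTTCNNTTTC, and the GAS as TTCNNNGAA, which reads the same on both strands. An ISRE core was found in 15 of the 29 genes (51.7%), against 3.99% of 27025 genes with a promoter. GAS letters were found in 6 of the 29 (20.7%), against 9.55% of genes. The genes were listed for being interferon-stimulated, so the share of ISRE cores describes the list and is no result about colitis. The 26 copies lay between 222 bases before the start and the first 50 bases after it, 22 of them within 200 bases before the start and 3 after the start.

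Isg15 carried 3 overlapping ISRE cores. They begin 78, 72 and 66 bases before the start, on the minus strand of chromosome 4. Its window, chr4:156200769-156201068, is shown whole to give the place of the element before the start, with the ISRE run in capitals.
Isg15: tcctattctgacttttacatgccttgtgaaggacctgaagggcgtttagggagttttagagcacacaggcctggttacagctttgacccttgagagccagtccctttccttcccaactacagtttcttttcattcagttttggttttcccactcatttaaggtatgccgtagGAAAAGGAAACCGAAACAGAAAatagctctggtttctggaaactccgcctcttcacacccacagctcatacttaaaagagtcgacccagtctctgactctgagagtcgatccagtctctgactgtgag

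Irf1 held no ISRE core but 1 GAS, 90 bases before the start, in the first of its promoters at chr11:53769764-53770063 on the plus strand. It is shown because Irf1 is the most abundant of the transcription factors described here and carried a GAS where Isg15 carried the ISRE. Capitals mark the GAS.
Irf1: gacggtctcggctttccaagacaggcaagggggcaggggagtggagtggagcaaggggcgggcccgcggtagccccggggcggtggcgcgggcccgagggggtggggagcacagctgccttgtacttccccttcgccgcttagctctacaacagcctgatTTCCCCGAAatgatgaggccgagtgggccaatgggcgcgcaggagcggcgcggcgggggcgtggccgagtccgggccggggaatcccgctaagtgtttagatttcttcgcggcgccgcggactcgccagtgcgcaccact

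Shorter stretches of 40 bases show the core where other genes described below carry it, with capitals for the ISRE. Bst2 is at chr8:71537578-71537617 on the minus strand, Oas1a at chr5:120907521-120907560 and Oas1g at chr5:120887607-120887646, both on the minus strand. Ifit3 is at chr19:34583358-34583397 and Ifit3b at chr19:34607754-34607793, both on the plus strand, and Oas3 is at chr5:120777710-120777749 on the minus strand.
Bst2: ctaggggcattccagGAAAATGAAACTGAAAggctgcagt
Oas1a: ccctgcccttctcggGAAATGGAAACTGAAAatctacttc
Oas1g: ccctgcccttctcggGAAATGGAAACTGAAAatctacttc
Ifit3: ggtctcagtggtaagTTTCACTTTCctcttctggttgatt
Ifit3b: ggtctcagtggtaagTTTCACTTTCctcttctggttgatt
Oas3: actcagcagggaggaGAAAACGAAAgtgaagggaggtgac

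Oas1a and Oas1g carry the same 40 bases, and so do Ifit3 and Ifit3b, where the core stands in its reverse form. In Bst2 the ISRE run overlaps GAS letters that begin 136 bases before the start. The median log2 fold change was 0.47 over the 15 genes with a core, of which 4 were at p under 0.05. It was 0.45 over the 14 genes with a promoter and no core, of which 5 were at p under 0.05. Over the 9 genes without a matched promoter it was 0.56, and 3 of them were at p under 0.05. Of all tested genes, 8.23% were higher at p under 0.05. A match describes letters and not a bound site, and no match says only that these letters are not in this window.

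**Figure D2:**
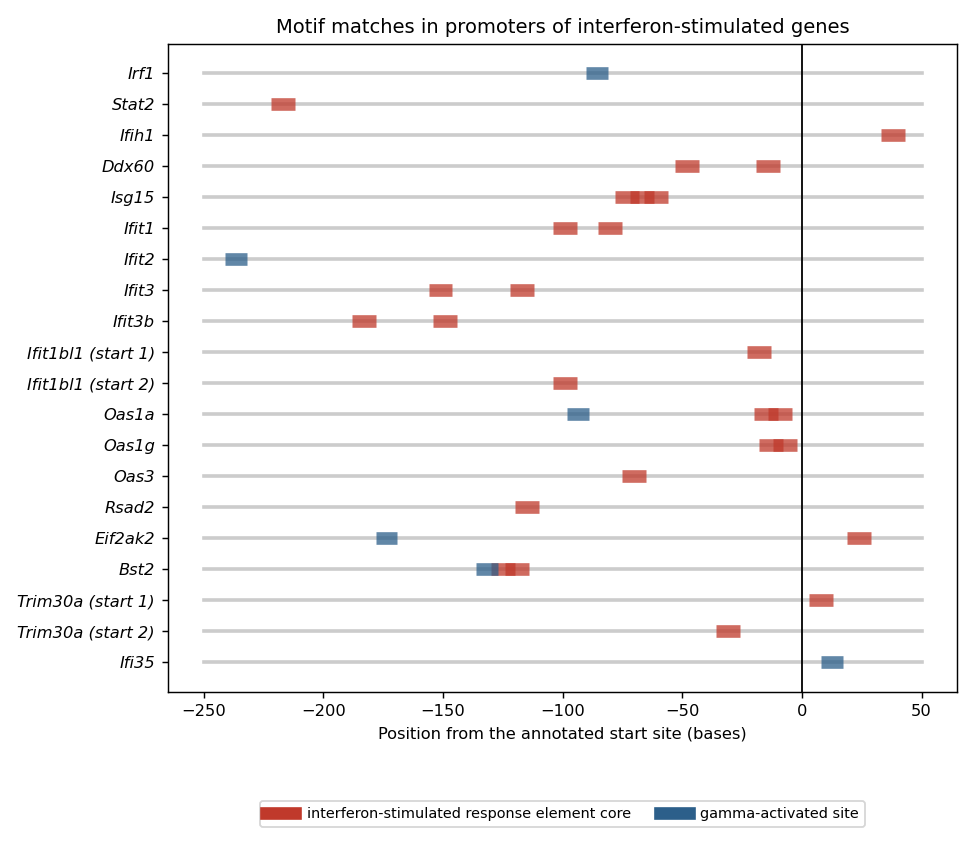
Positions of ISRE cores and GAS letters in the promoters of the genes that carry either, as distance in bases from the start of transcription. Most of the 26 ISRE copies stand within 200 bases before the start.

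Among the transcription factors, Irf1 was the most abundant by FPKM, at 74.0 ± 19.5 FPKM in Muc2-/- and 35.2 ± 7.77 FPKM in wild-type colon (SD, n = 3 each). Irf1 activates antiviral and antigen-presentation genes and is itself induced by interferons. It had 206, 339 and 329.7 CPM in Muc2-/- 1, 2 and 3, against 123, 126 and 172 CPM in wild-type 1, 2 and 3. The gene lies on chromosome 11 from 53660841 to 53669200, as the count table places it on an assembly other than that of the promoters. The groups did not overlap, and the log2 fold change was 1.05 (SE 0.26, edgeR adjusted p = 0.103, DESeq2 adjusted p = 0.00641). Stat2, a part of the interferon complex, had 42.6, 31.2 and 56.7 CPM in Muc2-/- 1, 2 and 3, against 23.8, 24.2 and 35.0 CPM in wild-type 1, 2 and 3. Its log2 fold change was 0.65 (SE 0.27, edgeR adjusted p = 0.224), with Muc2-/- 2 below wild-type 3.

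Irf9, the DNA-binding part of that complex, had 39.7, 41.7 and 56.6 CPM in Muc2-/- 1, 2 and 3, against 28.2, 30.1 and 42.7 CPM in wild-type 1, 2 and 3. Only wild-type 3 reached the Muc2-/- range, and the log2 fold change was 0.45 (SE 0.24, edgeR adjusted p = 0.317). Irf7, the factor that amplifies type I interferon production, took the other sign. It had 120.5, 88.6 and 93.3 CPM in Muc2-/- 1, 2 and 3, against 96.6, 139.7 and 111 CPM in wild-type 1, 2 and 3. Its groups overlapped, and the log2 fold change of -0.20 (SE 0.22, edgeR adjusted p = 0.635) was negative in each of the 20 alternatives tried, from -0.38 to -0.04. Irf7 overlaps Phrf1 and Irf9 overlaps Rnf31 in the count table.

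The 4 sensors of foreign or misplaced nucleic acid all had positive log2 fold changes, against 49.1% of all tested genes, with a median of 0.51. At p under 0.05, 1 of them was higher, against 8.23% of all tested genes. Zbp1, which senses Z-form nucleic acid and can start necroptosis, had 63.8, 72.2 and 121 CPM in Muc2-/- 1, 2 and 3, against 17.8, 24.7 and 47.5 CPM in wild-type 1, 2 and 3. Its means were 85.6 ± 30.8 CPM in Muc2-/- and 30.0 ± 15.6 CPM in wild-type (SD, n = 3 each), a ratio of 2.86. The groups did not overlap, and the log2 fold change was 1.51 (SE 0.40, edgeR adjusted p = 0.107, DESeq2 adjusted p = 0.00913). The double-stranded RNA sensor Ifih1 (MDA5), its regulator Dhx58 (LGP2) and the helicase Ddx60 gave 0.47, 0.56 and 0.21 on the log2 scale, at an edgeR adjusted p of 0.384 or more. For all of these wild-type 3 was the highest of the 6 libraries, and wild-type 1 and 2 lay below every Muc2-/- library. Ifih1, for example, had 97.9, 89.9 and 98.9 CPM in Muc2-/- 1, 2 and 3, against 45.6, 61.3 and 100.3 CPM in wild-type 1, 2 and 3.

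In the Isg15 system, Isg15 is a ubiquitin-like protein that is attached to other proteins, Herc6 is its mouse ligase and Usp18 removes it and also dampens the interferon receptor. Usp18 had the largest log2 fold change of the 38 genes, 1.86 (SE 0.37, edgeR adjusted p = 0.101, DESeq2 adjusted p = 0.000189). It had 6.06, 11.6 and 11.5 CPM in Muc2-/- 1, 2 and 3, against 2.27, 2.91 and 2.86 CPM in wild-type 1, 2 and 3. The wild-type libraries lay close together, all below the lowest Muc2-/- library. The count table places it on chromosome 6 from 121222865 to 121247876. Isg15 had 34.8, 95.5 and 38.7 CPM in Muc2-/- 1, 2 and 3, against 16.4, 19.8 and 40.3 CPM in wild-type 1, 2 and 3, so that Muc2-/- 2 stood far above the rest and wild-type 3 lay above the other Muc2-/- libraries. Its log2 fold change was 1.14 (SE 0.48, edgeR adjusted p = 0.225). Herc6 gave 0.52 (SE 0.32, edgeR adjusted p = 0.388) with overlapping groups.

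The Ifit genes, whose proteins bind foreign RNA or block its translation, lie together on chromosome 19, where the count table places them from 34528094 to 34627409, yet their log2 fold changes had both signs. Ifit2 had 20.4, 35.1 and 46.0 CPM in Muc2-/- 1, 2 and 3, against 14.9, 10.3 and 12.3 CPM in wild-type 1, 2 and 3. The groups did not overlap, and the log2 fold change was 1.44 (SE 0.32, edgeR adjusted p = 0.103, DESeq2 adjusted p = 0.00205). Ifit3 had 11.5, 16.3 and 10.6 CPM in Muc2-/- 1, 2 and 3, against 22.8, 12.8 and 10.7 CPM in wild-type 1, 2 and 3. Its copy Ifit3b had 3.45, 4.42 and 5.99 CPM in Muc2-/- 1, 2 and 3, against 8.63, 5.47 and 4.38 CPM in wild-type 1, 2 and 3. Wild-type 1 was highest for both genes, and their log2 fold changes were -0.27 (SE 0.34) and -0.41 (SE 0.39), at edgeR adjusted p of 0.696 and 0.580.

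Ifit1bl1, a mouse relative of Ifit1, had the highest FPKM of all 38 genes, 142 ± 61.2 in Muc2-/- and 85.8 ± 36.0 in wild-type (SD, n = 3 each). It had 374, 162 and 426 CPM in Muc2-/- 1, 2 and 3, against 165, 136 and 281 CPM in wild-type 1, 2 and 3, with Muc2-/- 2 within the wild-type range. Its log2 fold change was 0.72 (SE 0.41, edgeR adjusted p = 0.358), and that of Ifit1 was 0.76 (SE 0.45, edgeR adjusted p = 0.373). Ifit3 shares 51.2% of its 50-base windows with Ifit3b, and Ifit3b 44.5% with Ifit3, in GENCODE M21 transcripts, so the counts of this pair are uncertain. Ifit1 and Ifit1bl1 shared 7.14% and 6.45% with other genes.

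The oligoadenylate synthetases make the second messenger that activates RNase L, and Oasl1 and Oasl2 belong to the same family. Oas2, Oas3, Oas1g and Oas1a lie in 1 cluster with other Oas genes on chromosome 5, between 120868398 and 121045584. All 6 genes of the family had positive log2 fold changes, against 49.1% of all tested genes, with a median of 0.74. At p under 0.05, 4 were higher, against 8.23%. Oas2 had 4.58, 6.86 and 6.91 CPM in Muc2-/- 1, 2 and 3, against 2.38, 1.87 and 2.57 CPM in wild-type 1, 2 and 3. Oasl1, which in the mouse restrains translation of Irf7 mRNA, had 62.1, 45.1 and 60.8 CPM in Muc2-/- 1, 2 and 3, against 24.8, 32.5 and 35.9 CPM in wild-type 1, 2 and 3. Neither gene's groups overlapped, and the log2 fold changes were 1.42 (SE 0.36) for Oas2 and 0.85 (SE 0.22) for Oasl1, at edgeR adjusted p of 0.104 and 0.105 and DESeq2 adjusted p of 0.00355 and 0.0145.

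Oas3 had 19.9, 35.6 and 31.8 CPM in Muc2-/- 1, 2 and 3, against 14.0, 14.1 and 20.9 CPM in wild-type 1, 2 and 3. Oasl2 had 90.7, 83.3 and 119.5 CPM in Muc2-/- 1, 2 and 3, against 49.8, 52.5 and 85.5 CPM in wild-type 1, 2 and 3. Wild-type 3 exceeded 1 Muc2-/- library for each of these genes, with log2 fold changes of 0.84 (SE 0.29) and 0.64 (SE 0.26) and edgeR adjusted p of 0.161 and 0.217. Oas1a, the family's highest by FPKM, had 79.9, 83.9 and 90.4 CPM in Muc2-/- 1, 2 and 3, against 41.8, 60.9 and 83.4 CPM in wild-type 1, 2 and 3, and gave 0.45 (SE 0.26, edgeR adjusted p = 0.356). Its neighbour Oas1g gave 0.35 (SE 0.22, edgeR adjusted p = 0.384) without overlap of the groups. Oas1a shared 57.6% of its 50-base windows with Oas1g, which shared 45.3% with Oas1a, so these counts are uncertain too.

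Mx1 and Mx2 encode dynamin-like GTPases that trap viral particles, and laboratory strains such as C57BL/6 carry disrupted Mx genes. The count table lists both as polymorphic pseudogenes. Mx1 had 7.91, 2.77 and 6.36 CPM in Muc2-/- 1, 2 and 3, against 3.71, 4.94 and 4.09 CPM in wild-type 1, 2 and 3, and a log2 fold change of 0.42 (SE 0.44, edgeR adjusted p = 0.619). Mx2 averaged 0.757 ± 0.269 CPM in Muc2-/- and 1.24 ± 0.199 CPM in wild-type (SD, n = 3 each), with a log2 fold change of -0.71 (SE 0.51, edgeR adjusted p = 0.460). Muc2-/- 2 was the lowest library for Mx1 and the highest of its group for Mx2.

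The ADP-ribosyltransferases Parp9 and Parp14 and the ubiquitin ligase Dtx3l, which pairs with Parp9, gave log2 fold changes of 0.44 to 0.56, none of them at p under 0.05. Parp9 had 70.9, 47.8 and 108 CPM in Muc2-/- 1, 2 and 3, against 39.5, 39.2 and 75.8 CPM in wild-type 1, 2 and 3 (edgeR adjusted p = 0.422). Dtx3l, added here after its values were seen, had 50.9, 14.9 and 72.5 CPM in Muc2-/- 1, 2 and 3, against 26.8, 25.7 and 49.3 CPM in wild-type 1, 2 and 3. In Muc2-/- 2 it was below every wild-type library, while Parp9 in that library was above wild-type 1 and 2. The genes overlap by 682 bases on opposite strands, and reads in the overlap cannot be told apart without the strand setting of the counting, which the labels do not state.

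The 11 other effectors all had positive log2 fold changes, against 49.1% of all tested genes, with a median of 0.38. At p under 0.05, 2 were higher, against 8.23%. Bst2 (tetherin), which holds budding virus at the cell surface and was the highest of these by FPKM, had 31.7, 60.6 and 40.2 CPM in Muc2-/- 1, 2 and 3, against 25.4, 21.7 and 24.5 CPM in wild-type 1, 2 and 3. Its log2 fold change was 0.89 (SE 0.26, edgeR adjusted p = 0.121, DESeq2 adjusted p = 0.0351). Ifi44 had 4.10, 9.37 and 7.47 CPM in Muc2-/- 1, 2 and 3, against 1.71, 1.72 and 3.48 CPM in wild-type 1, 2 and 3, with a log2 fold change of 1.59 (SE 0.47, edgeR adjusted p = 0.124, DESeq2 adjusted p = 0.0184). The groups did not overlap for either gene, although wild-type 3 came close to Muc2-/- 1 for Ifi44.

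Rsad2 (viperin), which makes a chain-terminating nucleotide, gave 0.50 without overlap of the groups, and its genomic neighbour Cmpk2, a mitochondrial nucleotide kinase, gave 0.15. Eif2ak2, the kinase PKR that halts translation on double-stranded RNA, gave 0.18, and Samd9l, a restriction factor of poxviruses, gave 0.18. Trim30a gave 0.32, Ifi35 0.38, Xaf1, a partner of the apoptosis inhibitor XIAP, 0.38, Rtp4 0.48 and Sp100, a nuclear body protein, 0.37. The edgeR adjusted p for these 9 genes lay between 0.398 and 0.839. Over all 38 genes, 26 were at p of 0.05 or more, and 22 of those had a positive log2 fold change, from 0.15 to 0.76.

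**Figure D3:**
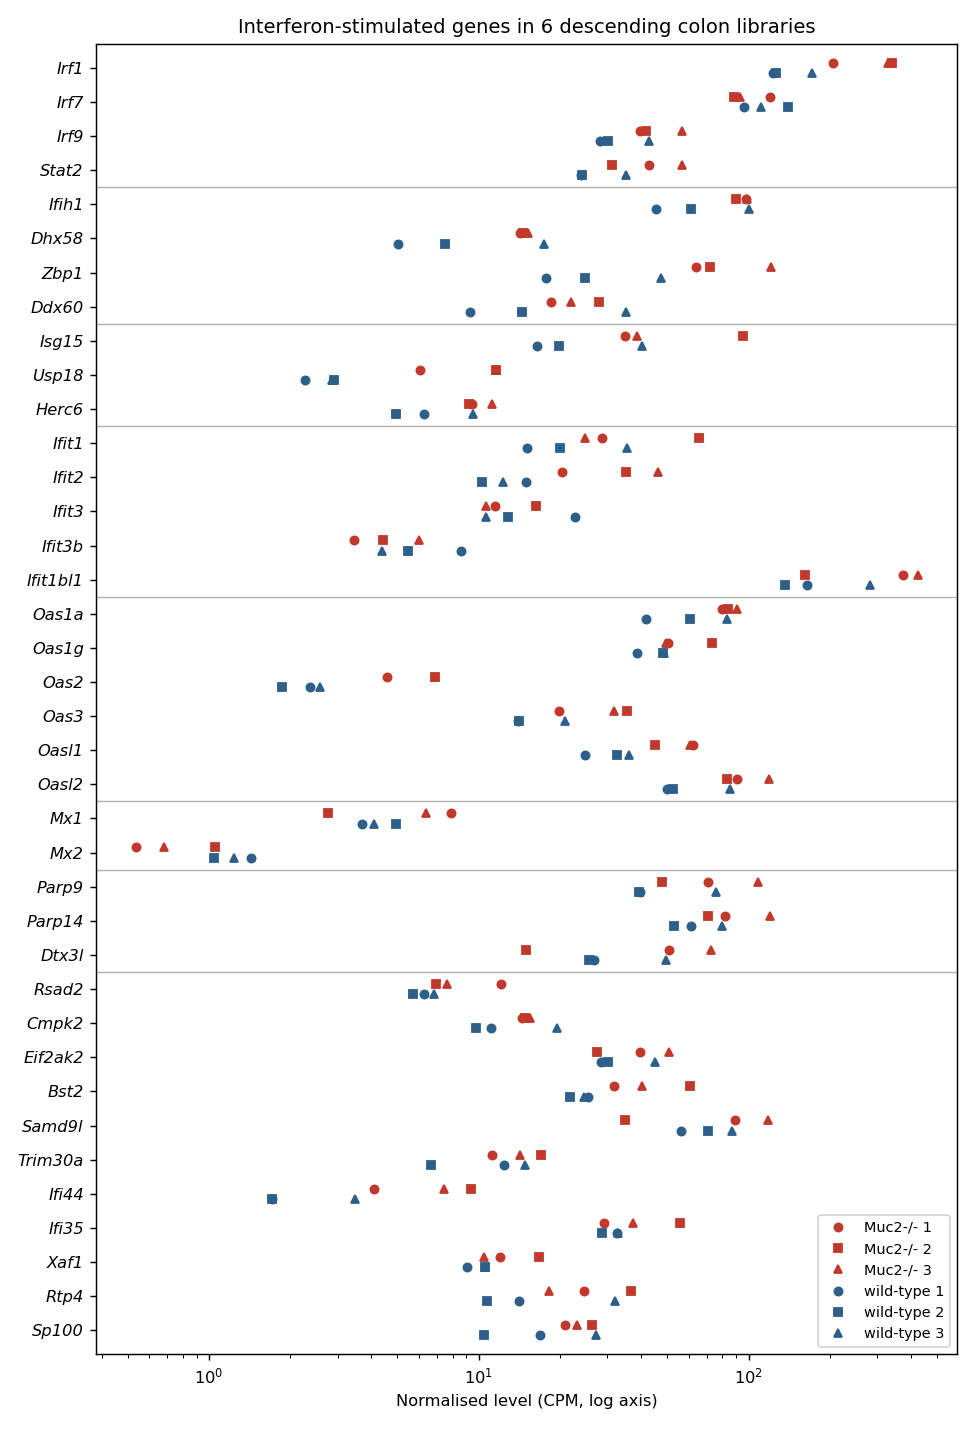
CPM of each of the 38 genes on a log axis, with the 3 Muc2-/- libraries (red) above the 3 wild-type libraries (blue) in each row and a marker shape for each replicate number. For 10 genes, among them Usp18, Zbp1 and Oas2, every Muc2-/- library lies right of every wild-type library, and wild-type 3 is the rightmost wild-type point in 30 rows.

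The wild-type libraries did not share 1 level of these genes. Wild-type 3 was the highest of its group for 30 of the 38 genes, against 35.1% of all tested genes, and wild-type 1 was the lowest for 21 of the 38, against 34.4%. The median over the genes of the log2 ratio of wild-type 3 to the mean of wild-type 1 and 2 was 0.56, against -0.05 over all tested genes. Summed over the 38 genes, CPM were 1901, 1876 and 2378 in Muc2-/- 1, 2 and 3, against 1119, 1181 and 1749 in wild-type 1, 2 and 3. For 26 genes every Muc2-/- library lay above both wild-type 1 and wild-type 2, and for 0 genes every Muc2-/- library lay below both. Wild-type 3 lay above every Muc2-/- library for 6 genes and above the Muc2-/- mean for 13. Shares over all tested genes were not counted for these 4 numbers, so they cannot be set against the rest of the genes. Mitochondrially encoded genes took 3.50%, 1.04% and 3.30% of counts in Muc2-/- 1, 2 and 3, against 8.98%, 5.30% and 3.49% in wild-type 1, 2 and 3, the highest share being in wild-type 1 and the lowest of the wild-type shares in wild-type 3. Its part in the differences was not tested.

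Leaving out wild-type 3 raised the median log2 fold change of the 38 genes to 0.84, and edgeR then called 3 of them higher and 0 lower at an adjusted p of 0.05, against 1.62% and 5.68% of the genes tested. These were Irf1 (log2 fold change 1.23, edgeR adjusted p = 0.0499), Zbp1 (2.02, adjusted p = 0.0223) and Usp18 (1.91, adjusted p = 0.0424). At an unadjusted p under 0.05, 24 of the 38 genes were then higher, against 8.45% of the genes tested. Each of the other libraries, left out in turn, gave 0 calls at an adjusted p of 0.05.

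Muc2-/- 2 was the highest library of its group for 16 genes and the lowest for 14, against 41% and 44.3% of all tested genes. Its place within the group varied with gene length. Among 9 genes of at most 2500 bases it was the highest of its group for 6 and the lowest for 1, with a median log2 ratio to the mean of Muc2-/- 1 and 3 of 0.56. Among 13 genes over 5000 bases it was the highest for 4 and the lowest for 8, with a median of -0.21. Spearman's rho between length and that ratio was -0.38 over the 38 genes and -0.23 over all tested genes, where genes share the same libraries and are not independent. Isg15 and Bst2, at 703 and 903 bases the shortest of the 38, had their highest level in Muc2-/- 2, and Dtx3l and Samd9l, at 5725 and 5427 bases, had their lowest there. Against this order, Muc2-/- 2 was the lowest of its group for Ifit1bl1, at 2260 bases, and the highest for Ifi44, at 6129 bases. The part of length in the difference between genotypes was not tested.

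**Figure D4:**
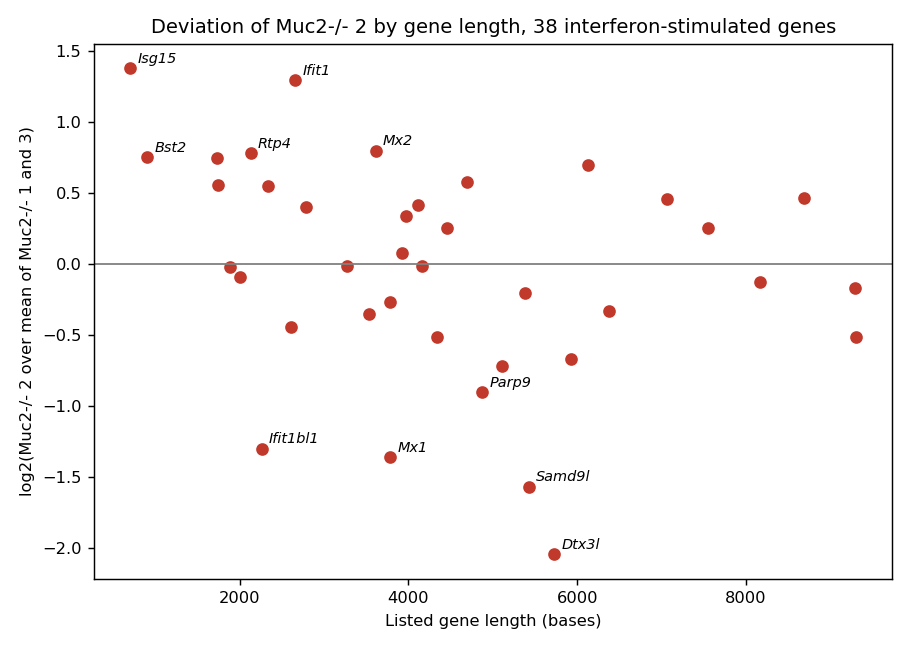
Log2 ratio of Muc2-/- 2 to the mean of Muc2-/- 1 and 3 for each of the 38 genes against the listed gene length in bases, with a point for each gene. Short genes such as Isg15 and Bst2 stand high and long genes such as Dtx3l and Samd9l stand low, with a Spearman rho of -0.38. Exceptions include the short Ifit1bl1 (2260 bases, -1.30) and the long Ifi44 (6129 bases, 0.70).

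The rest of the pathway was read from lists of its other genes. Of 21 interferon ligands of types I, II and III, 19 had 0 counts in every library, which allows up to 0.143 to 0.198 CPM per library at 3 counts. The exceptions were Ifng, at 0.0595, 0 and 0.494 CPM in Muc2-/- 1, 2 and 3 and 0 CPM in each wild-type library, and Ifnz, with 1 count in wild-type 2. No ligand was tested. Of 6 receptor chains, 1 was higher at p under 0.05, against 8.23% of all tested genes. This was Ifnlr1 of the type III receptor, at 21.3, 15.2 and 29.7 CPM in Muc2-/- 1, 2 and 3, against 8.02, 12.1 and 14.9 CPM in wild-type 1, 2 and 3 (log2 fold change 0.92, SE 0.33, edgeR adjusted p = 0.174).

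The type I receptor chains had log2 fold changes closer to 0. Ifnar1 had 38.9, 29.1 and 33.9 CPM in Muc2-/- 1, 2 and 3, against 36.1, 35.7 and 35.3 CPM in wild-type 1, 2 and 3, a log2 fold change of -0.07 (SE 0.18). Ifnar2 gave -0.19 (SE 0.43), Il10rb 0.40 (SE 0.22) and Ifngr2 0.31 (SE 0.23), with overlapping groups. Of the receptor kinases, Jak2 gave 0.27 (SE 0.19) and Tyk2 0.24 (SE 0.28), also with overlapping groups.

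Of 15 genes that sense nucleic acid upstream of the ligands or relay the signal, 11 had positive log2 fold changes, against 49.1% of all tested genes. At p under 0.05, 2 were higher, against 8.23%. These were Tlr3, the endosomal receptor of double-stranded RNA, at 1.01 (SE 0.27, edgeR adjusted p = 0.106), and Trim25, the ubiquitin ligase of the RIG-I pathway, at 0.56 (SE 0.18, edgeR adjusted p = 0.141). The adaptor Myd88 gave 0.38 (SE 0.18, edgeR adjusted p = 0.268). Among 7 inhibitors 2 were higher at p under 0.05, against 8.23% of all tested genes, and both are feedback inhibitors of Jak kinases. Socs3 gave 2.85 (SE 0.58, edgeR adjusted p = 0.101) and Socs1 2.08 (SE 0.55, edgeR adjusted p = 0.106), and Ptpn2, a phosphatase that acts on Jak and Stat proteins, gave 0.44 (SE 0.24).

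Of 53 other interferon-stimulated genes, 48 were tested, and their median log2 fold change was 0.42. Of these, 38 were positive, against 49.1% of all tested genes, and 12 were at p under 0.05, all higher, against 8.23%. The smallest p-values were those of the immunoproteasome subunit Psmb9 (1.85, SE 0.37), Epsti1 (0.92, SE 0.20) and Slfn4 (1.49, SE 0.34), at edgeR adjusted p of 0.101 to 0.103. None of the 48 passed an adjusted p of 0.05 in edgeR, and DESeq2 called 8 higher, against 4.09% of the genes it tested.

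The GTPases induced mainly by interferon gamma, which attack vacuoles that hold pathogens, were set beside the antiviral genes. Of 20 listed, 17 were tested, and all 17 had positive log2 fold changes, against 49.1% of all tested genes, with a median of 1.63. At p under 0.05, 12 were higher, against 8.23%, and DESeq2 called 10 higher, against 4.09% of the genes it tested. Ifi47 had 18.2, 76.4 and 72.0 CPM in Muc2-/- 1, 2 and 3, against 4.26, 3.38 and 7.33 CPM in wild-type 1, 2 and 3, a log2 fold change of 3.47 (SE 0.58, edgeR adjusted p = 0.083). Tgtp2 gave 2.87 (SE 0.64, edgeR adjusted p = 0.103) and Gbp2b 1.74 (SE 0.47, edgeR adjusted p = 0.111). None of the 17 passed an adjusted p of 0.05 in edgeR with all libraries. The difference between this list and the antiviral genes was not tested.

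Markers of cell types moved with the genotype beside these genes. The sum of 11 smooth muscle markers was 5332, 5664 and 2925 CPM in Muc2-/- 1, 2 and 3, against 24575, 14368 and 6948 CPM in wild-type 1, 2 and 3. All 11 had negative log2 fold changes, against 50.9% of all tested genes, with a median of -1.70. At p under 0.05, 10 were lower, against 12.7%. Among wild-type libraries, wild-type 3 had the lowest muscle sum and the highest sum over the antiviral genes, and wild-type 1 had the highest muscle sum and the lowest sum over the antiviral genes. By mean log2 CPM of the antiviral genes, wild-type 1 and 2 were nearly level, at 4.10 and 4.09. With the muscle score as a covariate, the median log2 fold change of the 38 genes was -7.33e-06 and 19 of them took the opposite sign. EdgeR called 0 of the 38 in that fit, where it called 0 of all 16107 genes tested. In that fit 1 of the 38 was higher at an unadjusted p under 0.05 (Usp18, log2 fold change 1.47), against 2.36% of all tested genes. The 8 genes at p under 0.05 without overlap, picked for that separation, had positive values in that fit. They ran from 0.24 (SE 0.28) for Zbp1 to 1.47 (SE 0.62) for Usp18. Mean log2 CPM of the muscle markers was 7.26 to 8.14 in Muc2-/- and 8.50 to 10.29 in wild-type libraries. Muscle and genotype thus cannot be told apart in this fit, for the genes that kept their sign or for those that changed it.

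The 11 epithelial markers summed to 25612, 42218 and 28147 CPM in Muc2-/- 1, 2 and 3, against 12297, 20874 and 23125 CPM in wild-type 1, 2 and 3. Of their log2 fold changes 10 of 11 were positive, against 49.1% of all tested genes, in a range of -1.11 to 1.26. At p under 0.05, 2 were higher and 1 lower, against 8.23% and 12.7% of all tested genes. Their median of 0.49 was the same to 2 decimals as that of the antiviral genes, although the epithelial markers did not all move the same way. The mean log2 CPM of the 38 genes minus that of the epithelial markers was -5.71 ± 0.26 in Muc2-/- and -5.79 ± 0.39 in wild-type (SD, n = 3 each), a difference of 0.08 that was smaller than the SD of either group. For the GTPases the same measure was -7.09 ± 0.82 in Muc2-/- and -8.18 ± 0.78 in wild-type (SD, n = 3 each), a difference of 1.09. With smooth muscle markers in place of epithelial ones, the 38 genes averaged -2.99 in Muc2-/- and -5.17 in wild-type. That difference of 2.18 was larger than the SD of either group. The size of the difference for the 38 genes thus depended on the markers they were set against.

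Among immune cells, the marker lists did not all move the same way. The 10 macrophage and monocyte markers all had positive log2 fold changes (median 0.86), against 49.1% of all tested genes. Of these, 6 were higher at p under 0.05, against 8.23%. They summed to 259 to 406 CPM in Muc2-/- and to 166 to 391 CPM in wild-type libraries. T and NK cell markers summed to 11.7 to 33.4 CPM in Muc2-/- and 2.50 to 8.74 CPM in wild-type libraries. Of these, 9 of 9 tested had positive log2 fold changes (median 1.80), against 49.1% of all tested genes. At p under 0.05, 5 were higher, against 8.23%. The 7 neutrophil markers summed to 402 to 781 CPM in Muc2-/- and 76.6 to 231 CPM in wild-type libraries, mostly from Ly6g. All 4 that were tested had positive log2 fold changes, against 49.1% of all tested genes, and 4 were higher at p under 0.05, against 8.23%. Among them S100a8 had 41.5, 4.35 and 152 CPM in Muc2-/- 1, 2 and 3, against 0, 0.156 and 0 CPM in wild-type 1, 2 and 3. The markers S100a9, Cxcr2, Retnlg and Mmp8 had 0 counts in every wild-type library. Such a marker can pass the filter on low counts only through Muc2-/- libraries, which fixes its sign. Of 8 general leukocyte markers 7 had positive log2 fold changes (median 0.48), against 49.1% of all tested genes. At p under 0.05, 0 were higher and 0 lower, against 8.23% and 12.7%. The 8 markers summed to 107 to 208 CPM in Muc2-/- and 45.9 to 262 CPM in wild-type libraries. All 6 B cell markers had negative log2 fold changes (median -0.47), against 50.9% of all tested genes, with 0 at p under 0.05. They summed to 11.8 to 59.6 CPM in Muc2-/- and 4.24 to 148 CPM in wild-type libraries. Both sums were highest in wild-type 1. Plasmacytoid dendritic cells, which can make large amounts of type I interferon, had 9 of 10 markers tested with a median of -0.13 and 0 at p under 0.05, and their defining marker Siglech stood at 0.238 to 0.802 CPM in Muc2-/- and 0.0476 to 0.774 CPM in wild-type libraries. The part of muscle, epithelium and immune cells in the differences above was not tested.

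**Figure D5:**
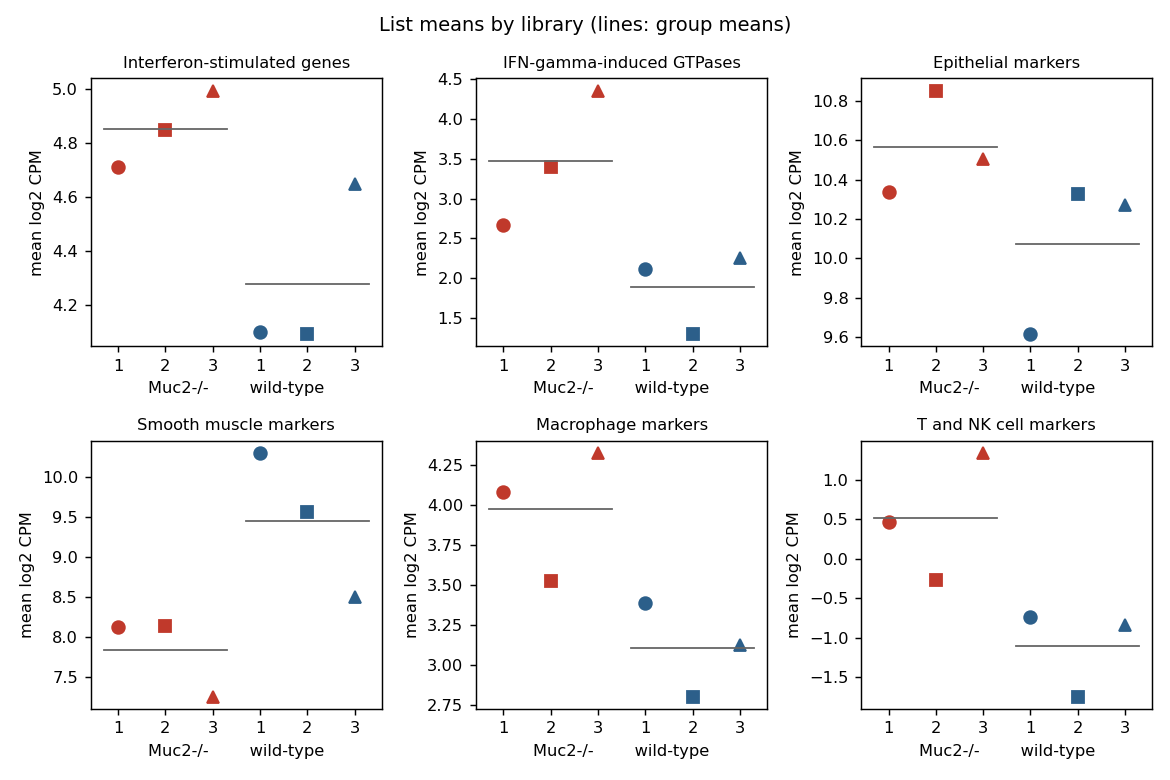
Mean log2 CPM per library of the 38 antiviral genes, the GTPases and the markers of epithelium, smooth muscle, macrophages, and T and NK cells, with Muc2-/- libraries left of wild-type libraries and lines at the group means. The antiviral genes average 4.71, 4.85 and 4.99 in Muc2-/- 1, 2 and 3 and 4.10, 4.09 and 4.65 in wild-type 1, 2 and 3, and smooth muscle markers are lower in every Muc2-/- library.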

How the data were processed

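Polyadenylated RNA of the descending colon was sequenced as paired-end Illumina reads in 3 Muc2-/- and 3 wild-type libraries, per the labels' protocols. Groups and replicate numbers come from the sample titles. The authors deposited whole-number counts per gene, not normalized, and FPKM per gene. The submitters' processing notes list mm10 and, with no role or order given, featureCounts 1.5.0-p3, HISAT2 2.0.5, DESeq2 1.20.0 and StringTie 1.3.3b. The deposited FPKM were found to scale each library by a denominator proportional to its DESeq2 size factor. Gene coordinates in the count table are not those of mm10 and are printed as the table gives them, while promoter coordinates are GRCm38.p6. P-values measure only the spread between these libraries, which may be technical, since nothing says that they come from separate animals. Replicates differed by 25.0 to 148 in chi-square per degree of freedom, far beyond counting noise, and none was merged.

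The test was the quasi-likelihood test of edgeR 4.0.16 (R 4.3.3, statmod 1.5.0) on the deposited counts, after TMM scaling and the default filter (minimum count 10, total 15). Genotype was the only term, and p-values were adjusted after Benjamini and Hochberg over all tested genes, at 0.05. SE is the absolute log2 fold change divided by the square root of the F statistic. CPM are counts scaled to a common library total, with each total multiplied by its TMM factor, and log2 CPM in mean levels used a prior count of 2. Counting floors of 3 counts cover counting error only. The procedure was tested on simulated data. Near copies were counted as 50-base windows shared in GENCODE M21 transcripts.

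The genes, their roles, the other lists and the tests were chosen with earlier results of these data known. CPM of every library are given for genes at an unadjusted p under 0.05, for the highest gene by FPKM in each role, and for Irf7, Irf9, Stat2, Ifit3 and Ifit3b. From pathway lists up to 3 genes with the smallest p are named, with Ifnar1 and Ifnar2. The result for 1 gene of the rule is not reported here. Any other gene was named after seeing its values.

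There were 20 alternatives: other scaling (RLE, upper quartile or none), a filter left out or made stricter (at least 1 CPM in 3 libraries, total 50), DESeq2 1.42.0, limma-voom, limma 3.58.1 on log2(FPKM + 1) with a minimum of 1 FPKM and on log2(FPKM + 0.1), a block for the replicate number, protein-coding genes alone, a smooth muscle score as covariate, each library left out, wild-type 1 and Muc2-/- 2 left out together, and wild-type 3 and Muc2-/- 2 left out together, the last chosen after seeing the data.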

Additional observations from a re-analysis of the deposited data

How the results depend on the processing

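Genes called higher at an adjusted p of 0.05 numbered 0 in the edgeR fit, 4 without a filter on low counts (1.43% of all genes tested in that fit), 8 in DESeq2 (4.09%), 2 with the replicate block (1.4%), 0 to 3 with 1 library left out (0% to 1.62%) and 14 with wild-type 3 and Muc2-/- 2 both left out (5.44%). Calls over all genes thus became more frequent in the same fits that called some of the 38. At an unadjusted p the 12 genes (8.23% of all genes) became 1 with the smooth muscle covariate (2.36%) and 28 with wild-type 3 and Muc2-/- 2 both left out (14%). With 1 library left out they numbered 8 to 24, in fits where 5.41% to 9.25% of all genes were higher. The 24 came without wild-type 3, where the share of all genes was 8.45%. The median log2 fold change of 0.49 was 0.31 without composition factors, which moved the median of all genes to -0.20, -7.33e-06 with the smooth muscle covariate, 0.39 to 0.84 with 1 library left out and 0.80 with wild-type 3 and Muc2-/- 2 both left out. None of the 38 was called lower in any of the 20 alternatives. Of all genes tested, 0% to 9.92% were called lower in these fits (7.41% in DESeq2). Fits that called few genes lower say little here. The 8 genes at p under 0.05 without overlap had a positive log2 fold change in every alternative that tested them. They were picked because every Muc2-/- library lay above every wild-type library. Their sign was thus largely fixed in advance and is no separate support.

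With the smooth muscle covariate 19 genes took the opposite sign: Irf9 -0.17, Stat2 -0.021, Ifih1 -0.27, Dhx58 -0.53, Ddx60 -0.87, Herc6 -0.028, Ifit3 0.68, Ifit3b 0.021, Ifit1bl1 -0.12, Oas1a -0.22, Oasl2 -0.084, Parp9 -0.49, Parp14 -0.092, Dtx3l -0.73, Cmpk2 -0.44, Eif2ak2 -0.55, Samd9l -0.70, Rtp4 -0.043 and Sp100 -0.14. Without wild-type 1 and Muc2-/- 2, Ddx60 was -0.30 and Ifit1 -0.053, and without composition factors Cmpk2 was -0.023. With 1 library left out, the log2 fold change ran from -0.13 to 0.95 for Ddx60, from -0.46 to 0.13 for Ifit3, from -0.037 to 0.88 for Dtx3l, from -0.034 to 0.52 for Cmpk2, from -0.029 to 0.43 for Eif2ak2 and from -0.19 to 0.56 for Samd9l. The cause was not tested.

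Deviations of same-numbered libraries correlated at 0.089, 0.283 and 0.060, and those of differently numbered libraries at -0.248 to 0.080. Muc2-/- 3 correlated as closely with wild-type 1, at 0.063. Deviations within a group of 3 libraries are tied to each other, so these values cannot decide whether the numbers pair libraries. The labels do not say that they do, and the block was kept as an alternative. The fit with the replicate block called 2 genes, Usp18 and Zbp1, and gave a median of 0.52, while its calls over all genes numbered 225 higher and 448 lower, against 17 and 3 without the block. Low counts limit Mx2, with as few as 9 counts in a library.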
